A study of Mus musculus with 6 samples.

Results

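The ADAM and ADAMTS proteases were followed in mouse embryonic fibroblasts of 6 genotypes by RNA sequencing. Members were the rows of the deposited count tables whose symbol is Adam followed by a number and at most 1 letter, or Adamts or Adamtsl followed by a number, and that had at least 1 CPM (counts-per-million of the counts on genes, after scaling of the library size) in at least 1 library. Of 56 rows with such a symbol, 36 met the minimum, among 14810 genes that met it and 25793 genes listed. Counting by symbol, 14 members were ADAMs, 17 were ADAMTS proteases and 5 were ADAMTS-like proteins. The other 20 rows stayed below the minimum, and 10 of them had 0 counts in all 6 libraries. Just inside the minimum were Adam5 and Adamts19, with highest levels of 1.31 and 1.42 CPM, and just outside were Adam32 and Adamts18, with 0.747 and 0.708 CPM.

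The cells were primary fibroblasts from E13.5 embryos of Sptbn1 and SMAD3 heterozygous parents, cultured with 10% fetal bovine serum. The labels name wild type (WT), β2SP+/- and β2SP-/- cells, in which 1 or 2 alleles of Sptbn1, the gene of the membrane-skeleton protein beta-2 spectrin, are mutant, SMAD3+/- and SMAD3-/- cells, in which the same holds for the TGF-beta signal transducer Smad3, and cells heterozygous for both. The labels name no agent for any group. Each genotype had 1 library, so there is no replicate check, each comparison is between libraries, and p-values were computed only in fits that take several libraries together, of which the main one uses all 6. In such bulk samples, fewer cells of a type and less RNA per cell cannot be told apart.

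ADAMs are membrane proteins with a pro-domain, a metalloprotease domain and a disintegrin domain, and those with an intact zinc-binding site cut the extracellular parts of other membrane proteins off the cell surface. ADAMTS proteases are secreted, carry thrombospondin repeats and cut proteins of the extracellular matrix such as procollagens, aggrecan and versican. ADAMTS-like proteins share the repeats and lack the protease domain, and several of them bind fibrillin microfibrils. Fibroblasts are a main source of many of these proteins in connective tissue.

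The zinc-binding site separates the members by what they can cut, so it was read from the coding sequences of the reference (GENCODE vM21, GRCm38). It spans 11 codons, and the histidine codons that hold the zinc are the first, the fifth and the last of them. Among the 36 members, 26 had the site. The 10 that lacked it were Adam11, Adam22, Adam23, Adam4, Adam5 and the 5 ADAMTS-like genes. The following 33-base sites, 5′ to 3′ on the coding strand, are examples from members whose levels are described below, among them pairs with like sites, with the 3 histidine codons in capitals.
Adam10: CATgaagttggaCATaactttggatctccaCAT
Adam17: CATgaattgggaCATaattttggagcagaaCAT
Adam12: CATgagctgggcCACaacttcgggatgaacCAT
Adam19: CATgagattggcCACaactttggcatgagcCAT
Adam8: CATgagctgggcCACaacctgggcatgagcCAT
Adamts4: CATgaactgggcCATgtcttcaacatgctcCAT
Adamts15: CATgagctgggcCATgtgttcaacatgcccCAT
Adamts8: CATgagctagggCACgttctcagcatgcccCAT
Adamts6: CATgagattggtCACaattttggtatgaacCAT
Adamts7: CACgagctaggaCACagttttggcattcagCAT

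Adam10 and Adam17 share 26 of the 33 bases, Adam12 and Adam19 share 28, Adam12 and Adam8 share 29, and Adamts4 and Adamts15 share 30. The eighth codon is for glycine in 20 of the 26 members with the site, for asparagine in 5 (Adamts1, Adamts4, Adamts9, Adamts15 and Adamts20) and for serine in Adamts8. Those 6 were all in the list of proteoglycanases used below, whose only other member, Adamts5, has glycine. In GRCm38 the sites lie in coding exons. The Adam8 site is at chr7:139987893-139987925 on the minus strand, and the Adam12 site is at chr7:133961158-133961190 on the same strand. The Adam19 site is at chr11:46125050-46125082 on the plus strand, and the Adam17 site is at chr12:21336732-21336764 on the minus strand. Those of Adam10, Adamts4, Adamts15, Adamts8, Adamts6 and Adamts7 are each split by an intron. Adamts8 and Adamts15, both on chromosome 9, are neighbouring genes, as are Adamts1 and Adamts5 on chromosome 16.

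Counts on genes ran from 6856680 in β2SP-/- to 31125055 in the double heterozygote. In the libraries labelled SMAD3-/- and double heterozygous, 80.1 and 81.2% of uniquely placed reads fell on genes, against 40.9 to 43.3% in the other 4, so comparisons across these sets of libraries also compare libraries of unlike make-up. Sptbn1, listed under its older symbol Spnb2, was at 1419 CPM in WT, 1071 in β2SP+/- and 771 in β2SP-/-. Over the whole series its level did not follow the Sptbn1 genotype. The double heterozygote had the lowest value, 695 CPM, below β2SP-/-. With SMAD3 alone named as mutant, SMAD3-/- reached 1022 CPM, below β2SP+/-, and SMAD3+/- reached 1556 CPM, above WT. Smad3 ran against the labels, with 53.3 CPM in WT, 79.5 in the library labelled SMAD3+/-, 106 in the one labelled SMAD3-/- and 203 in the one labelled double heterozygous. Nothing in the labels tells which exons are missing from either gene, and the names of these libraries are used below only as labels. Xist, which females express from their silent X chromosome, reached 2747 CPM in the library labelled SMAD3+/-, with at most 16.3 CPM elsewhere, so comparisons with this library also compare the sexes of the embryos. The fibroblast markers were high in every library, with summed levels of 17350 to 47653 CPM for 10 genes. Leukocyte markers summed to 2634 CPM in WT, 1675 in β2SP+/-, 1791 in β2SP-/-, 2522 in the library labelled SMAD3+/-, 70.5 in the one labelled SMAD3-/- and 1992 in the double heterozygote.

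The summed level of the family lay close to that of WT in 4 of the 5 other libraries. The 36 members summed to 3149 CPM in WT, 3117 in β2SP+/-, 2960 in β2SP-/-, 3132 in the library labelled SMAD3+/- and 3087 in the double heterozygote, and to 1803 CPM in the library labelled SMAD3-/-. Within the double heterozygote the make-up differed: ADAMs summed to 1696 CPM against 1947 in WT, ADAMTS proteases to 1244 against 1121 and ADAMTS-like genes to 147 against 81.4. Of the 36 members, 17 had their lowest level in the library labelled SMAD3-/- and 17 had their highest in the double heterozygote. The same was not counted over all genes, so these counts have no background and cannot be read as particular to the family. A level of at least 1 CPM was reached in every library by 27 members.

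Per kilobase of exon, Adam9 had the highest mean over the 6 libraries, at 66.3 CPM per kb, followed by Adam19 at 58.7, Adamts1 at 48.0, Adam12 at 42.8, Adam10 at 30.6 and Adamts5 at 22.8 CPM per kb. These 6 genes held 64.9% of the family's summed level per kilobase. Adam19 led in WT, β2SP+/-, β2SP-/- and the library labelled SMAD3+/-, and Adam9 led in the other 2.

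**Figure D1:**
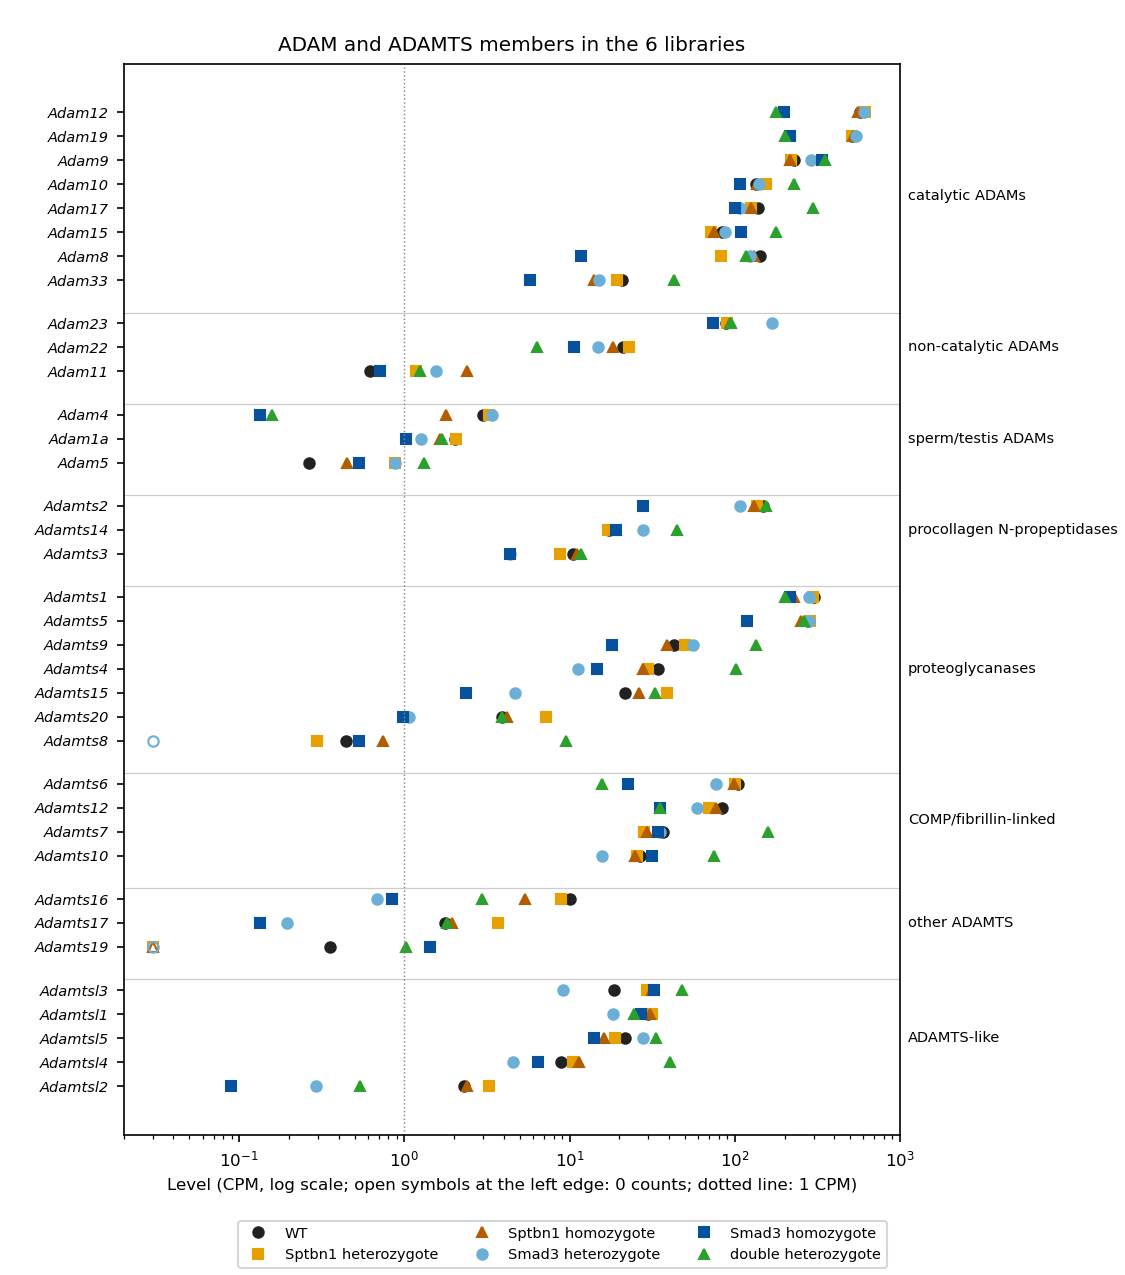
Level of each of the 36 members in the 6 libraries, in CPM on a log scale, grouped by role and ordered by mean level within a role. Each symbol is 1 library, and open symbols at the left edge mark 0 counts. The library labelled Smad3 homozygote is the lowest for 17 members and the double heterozygote the highest for 17, without a background over all genes.

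A member was called higher or lower when the whole exact 95% interval of its count ratio lay beyond 1.5-fold. Intervals follow each fold in parentheses and cover counting error only, since without molecular identifiers several reads can come from 1 molecule. The 5 comparisons with WT share the WT library. The background is the share of all 14810 genes called by the same rule in the same direction, and counts of members and of gene lists are to be read against it.

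Sptbn1 genotype went with few differences. In β2SP+/-, 1 of 36 members was higher than in WT (2.78%, background 0.635%) and 1 was lower (2.78%, background 1.20%). In β2SP-/-, 1 was higher (2.78%, background 0.648%) and 0 were lower (background 0.412%). Between β2SP-/- and β2SP+/-, 0 of 36 were higher and 0 lower, with backgrounds of 0.925% and 0.378%. The 3 called ratios were Adamts15 and Adam8 in β2SP+/- and the scarce Adam11 in β2SP-/-. All 3 calls were lost when intervals were widened by the dispersion fitted to the 4 libraries with 40.9 to 43.3% of reads on genes. For the 26 members that reached 10 CPM in some library, β2SP-/- levels lay between 67.3% of WT, for Adam33, and 171%, for Adamtsl3, and 25 of 26 were within 1.5-fold. The median log2 ratio over the 36 members was -0.01 in β2SP+/- and -0.09 in β2SP-/-, against -0.01 and 0.00 over all genes.

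In the library labelled SMAD3+/-, 8 of 36 members were lower than in WT (22.2%, background 4.46%) and 1, Adam23, was higher (2.78%, background 1.64%). The 8 were Adamts3, Adamts4, Adamts15, Adamts16, Adamts17, Adamts20, Adamtsl2 and Adamtsl3, so 6 of the 17 ADAMTS proteases, 2 of the 5 ADAMTS-like genes and 0 of the 14 ADAMs were lower. Adamts16, Adamts17 and Adamtsl2 were under 1 CPM in this library and met the minimum only through others. Among the 27 members at 1 CPM in every library, 4 were lower (14.8%) and 1 higher (3.70%). No background was counted for this narrower set. The median log2 ratio over all 36 members was -0.45, against 0.01 over all genes. With the intervals widened by the dispersion fitted to the 4 libraries to which both belong, 7 of the 8 members were still lower. Adamtsl3 and Adam23 were no longer called. In that fit only the library labelled SMAD3+/- carries a Smad3 allele, so the dispersion holds nothing of its spread. The share of all genes called so was not counted either, and the 7 calls cannot be judged by this widening.

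In the library labelled SMAD3-/-, 18 members were lower than in WT (50.0%, background 25.2%) and 1, Adamtsl3, was higher (2.78%, background 24.2%). The 18 include Adam4, Adamts16, Adamts17, Adamts20 and Adamtsl2, which were under 1 CPM in this library and met the minimum only through others. Among the 27 members at 1 CPM in every library, 13 were lower (48.1%) and 1 higher (3.70%). The median log2 ratio over all 36 members was -0.99, against 0.05 over all genes. Against the library labelled SMAD3+/-, 11 members were lower (30.6%, background 22.3%) and 3 higher (8.33%, background 22.6%). Leukocyte markers fell in the same library, with 16 of 16 lower than in WT, and 7 of 10 fibroblast markers were lower and 2 higher. Their part in the family's levels was not tested.

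The double heterozygote had members called in both directions. Against WT, 13 were higher (36.1%, background 21.6%) and 8 lower (22.2%, background 19.1%), with a median log2 ratio of 0.38 against 0.06 over all genes. The 13 include Adam5 and Adamts8, which reached 1 CPM in the double heterozygote alone. They so entered the family through the library in which they are high, and without them 11 are left. Adam4 and Adamtsl2, among the 8 lower, were under 1 CPM in the double heterozygote and met the minimum only through others. Among the 27 members at 1 CPM in every library, 11 were higher (40.7%) and 5 lower (18.5%). No background was counted for this narrower set. Against β2SP+/-, 12 were higher (33.3%, background 21.1%) and 8 lower (22.2%, background 18.3%). Against the library labelled SMAD3+/-, 17 were higher (47.2%, background 22.5%) and 7 lower (19.4%, background 19.0%). Both counts of higher members include Adamts8, and Adamts19, which met the minimum only here and in the library labelled SMAD3-/-. Among the 27 members at 1 CPM in every library, 10 were higher than in β2SP+/- (37.0%) and 12 than in the library labelled SMAD3+/- (44.4%). The shares of lower members thus stood near the background. With the intervals widened by the dispersion among all 6 libraries, fewer members were called against WT. Those left in the library labelled SMAD3-/- were 6, all lower: Adam4, Adam8, Adamts15, Adamts16, Adamts17 and Adamtsl2. Of these, Adam4, Adamts16, Adamts17 and Adamtsl2 were under 1 CPM there and met the minimum only through others. In the double heterozygote 3 were left, Adam4 and Adamts6 lower and Adamts8 higher, which met the minimum only there. In the library labelled SMAD3+/- 1 was left, Adamts16, lower. Adam4 in the double heterozygote and Adamts16 in the library labelled SMAD3+/- were likewise under 1 CPM. The share of all genes called with these wider intervals was not counted, so these counts have no background.

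**Figure D2:**
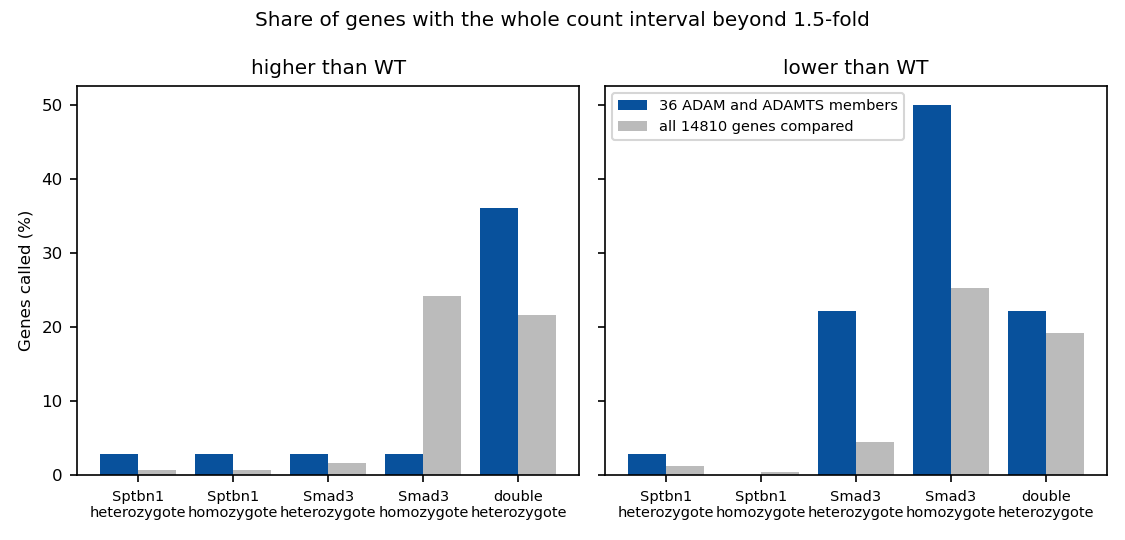
Percent of the 36 members and of all 14810 genes called higher (left) or lower (right) than WT in each of the other 5 libraries, both axes starting at 0. Members called lower reach 50.0% in the library labelled Smad3 homozygote against 25.2% of all genes. Members called higher reach 36.1% in the double heterozygote against 21.6%, and include Adam5 and Adamts8, which met the minimum only there.

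Among the 8 catalytic ADAMs measured, 0 were called in the library labelled SMAD3+/-, and 4 (Adam8, Adam12, Adam19 and Adam33) were lower in the one labelled SMAD3-/- (50.0%, background 25.2%). In the double heterozygote 4 (Adam10, Adam15, Adam17 and Adam33) were higher (50.0%, background 21.6%) and 2 (Adam12 and Adam19) were lower (25.0%, background 19.1%). Adam12 and Adam19, the meltrins, known for roles in muscle and heart development, had close values throughout. Adam12 was at 569 CPM in WT, 610 in β2SP+/-, 557 in β2SP-/-, 609 in the library labelled SMAD3+/-, 198 in the one labelled SMAD3-/- and 177 in the double heterozygote. Adam19 was at 515, 511, 520, 544, 216 and 200 CPM in the same order, which is kept below. For both genes the first 4 libraries lay together and the last 2 well below them, with no overlap. Adam12 was 2.87-fold lower than WT (2.76 to 2.98) in the library labelled SMAD3-/- and 3.22-fold lower (3.11 to 3.34) in the double heterozygote. For Adam19 the folds were 2.38 (2.30 to 2.48) and 2.57 (2.48 to 2.67). These sets of libraries are also those that differ in the share of reads on genes, and the part of that difference cannot be told apart from genotype here.

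Adam10 and Adam17 are the main sheddases of many cell types, Adam10 for Notch and cadherins and Adam17 for TNF and ligands of the EGF receptor. Adam17 was at 139, 126, 126, 107, 99.9 and 296 CPM. Adam10 was at 135, 155, 136, 140, 108 and 227 CPM. Both had their highest level in the double heterozygote and their lowest in the library labelled SMAD3-/-, and the other 4 libraries lay between. In the double heterozygote Adam17 was 2.13-fold higher than WT (2.02 to 2.25) and Adam10 1.68-fold higher (1.59 to 1.77), the latter no longer called with DESeq2 size factors. About 4.35% of the Adam17 exon length in the reference overlaps Iah1 on the opposite strand, and Iah1 was at 12.5 CPM in WT and 24.7 CPM in the double heterozygote.

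Adam8, a protease best known from myeloid cells, was at 142, 82.6, 130, 124, 11.8 and 117 CPM. It was 12.0-fold lower than WT (10.5 to 13.7) in the library labelled SMAD3-/- and 1.71-fold lower (1.56 to 1.89) in β2SP+/-. The leukocyte markers also had their 2 lowest sums in these libraries, 70.5 and 1675 CPM against 2634 in WT, with Ptprc at 0.933 CPM, Cd52 at 0.267 and Lyz2 at 41.2 in the library labelled SMAD3-/-. In β2SP+/- 6 of 16 of these markers were lower than in WT (37.5%, background 1.20%). The sums were also below WT in β2SP-/-, at 1791 CPM, and in the double heterozygote, at 1992 CPM, where Adam8 was not called. The part of leukocyte RNA in the Adam8 level was not tested.

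Adam9 was at 227, 218, 216, 288, 336 and 353 CPM, so its 3 highest values came from the 3 libraries whose labels name a mutant SMAD3 allele. None of its ratios to WT was called, since its intervals did not lie wholly beyond 1.5-fold. Adam15, which carries an integrin-binding motif, was at 83.7, 71.3, 74.9, 87.7, 109 and 178 CPM. It was 2.13-fold higher than WT (1.98 to 2.28) in the double heterozygote. The overlap of Adam15 with a reference gene on the opposite strand covers 20.6% of its exon length, and that gene is not among the rows of the tables. Adam33, a gene linked to asthma and expressed in mesenchyme, was at 20.9, 19.4, 14.0, 15.0, 5.77 and 43.1 CPM. It was the only catalytic ADAM called in opposite directions in 2 libraries, 3.62-fold lower (2.91 to 4.51) in the library labelled SMAD3-/- and 2.06-fold higher (1.79 to 2.38) in the double heterozygote.

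The ADAMs without a catalytic site, Adam11, Adam22 and Adam23, are receptors of LGI proteins at synapses. Adam22 was at 21.0, 23.0, 18.2, 14.9, 10.6 and 6.37 CPM. Its 3 values from libraries labelled with a mutant SMAD3 allele lay below the other 3, and it was 1.98-fold lower than WT (1.65 to 2.38) in the library labelled SMAD3-/- and 3.29-fold lower (2.72 to 3.99) in the double heterozygote. Adam23 was at 88.1, 89.8, 93.4, 169, 73.5 and 95.3 CPM. Here only the library labelled SMAD3+/- stood apart, 1.91-fold higher than WT (1.77 to 2.07) and 2.29-fold above the one labelled SMAD3-/-. Adam11 ranged from 0.619 CPM in WT to 2.39 CPM in β2SP-/-, a 3.86-fold difference (1.5 to 11.1) that rests on 7 and 16 counts and was not called with DESeq2 size factors or total counts.

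Of the ADAMs known from sperm and testis, 3 of 20 listed in the tables met the minimum, all at low levels. Adam4, named here after its values were seen, was at 3.01, 3.24, 1.79, 3.39, 0.133 and 0.159 CPM. Its first 4 libraries lay between 1.79 and 3.39 CPM, and it was 22.6-fold lower than WT (7.10 to 115) in the library labelled SMAD3-/- and 18.9-fold lower (7.35 to 61.9) in the double heterozygote. Adam1a ranged from 1.02 to 2.06 CPM with 0 calls against WT. Of its exon length, 24.0% is shared with Mapkapk5 and 63.7% with Gm42878, both on the same strand. Gm42878 has no row of its own in the deposited counts. Adam5 reached 1.31 CPM in the double heterozygote, 4.92-fold above WT (1.57 to 24.8), where it had 3 counts, a call lost with DESeq2 size factors.

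**Figure D3:**
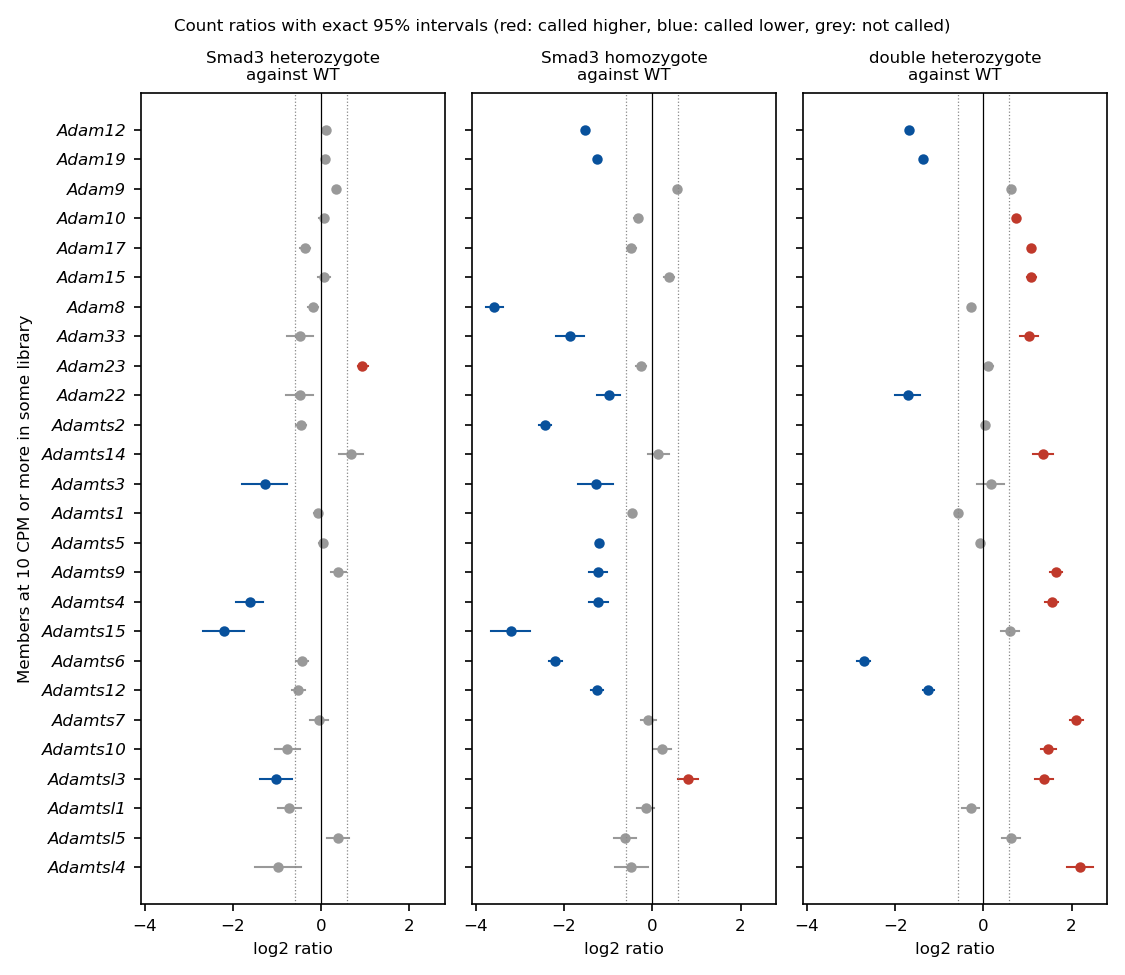
Log2 ratio to WT of the 26 members that reached 10 CPM in some library, in the libraries labelled Smad3 heterozygote, Smad3 homozygote and double heterozygote. Points are count ratios with exact 95% intervals, dotted lines mark 1.5-fold, red and blue mark members called higher and lower, and blue points prevail in the middle panel while the right panel holds both colours.

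Adamts2, Adamts3 and Adamts14 remove the amino-terminal propeptide of fibrillar procollagens, a step in collagen fibril assembly. Adamts2, which had the highest mean level of the 3 per kilobase, was at 149, 137, 131, 108, 27.7 and 154 CPM. Only the library labelled SMAD3-/- stood apart, 5.37-fold below WT (4.90 to 5.90) and 3.90-fold below the one labelled SMAD3+/-. Its collagen substrate gene Col1a1 was at 9319, 9419, 9533, 6903, 2896 and 14982 CPM, also lowest in that library. Col1a2 was lowest there too, at 4558 CPM against 6997 in WT. Other fibrillar collagen genes did not follow. Col3a1 was lowest in the library labelled SMAD3+/-, at 1510 CPM. In the library labelled SMAD3-/-, Col5a1 was at 1712 CPM against 1773 in WT, and Col2a1 was at 151 against 3.36. Adamts3 was at 10.5, 8.69, 11.1, 4.36, 4.35 and 11.8 CPM. It was lower than WT in both single SMAD3-labelled libraries, 2.41-fold (1.70 to 3.48) in SMAD3+/- and 2.42-fold (1.84 to 3.19) in SMAD3-/-, and not in the double heterozygote. Adamts14 was at 17.3, 17.1, 19.1, 27.7, 19.1 and 44.4 CPM, 2.56-fold higher than WT (2.20 to 2.99) in the double heterozygote. The 3 enzymes thus did not share 1 pattern over the libraries.

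The proteoglycanases Adamts1, Adamts4, Adamts5, Adamts8, Adamts9, Adamts15 and Adamts20 cut aggrecan, versican and related proteoglycans. Of these 7, 3 were lower in the library labelled SMAD3+/- (42.9%, background 4.46%) and 5 in the one labelled SMAD3-/- (71.4%, background 25.2%). In the double heterozygote 3 were higher (42.9%, background 21.6%), and 0 were called the other way in these 3 libraries. The 3 higher ones include Adamts8, which met the minimum only in the double heterozygote, so Adamts4 and Adamts9 are left without it. The 2 most abundant per kilobase, Adamts1 and Adamts5, had 0 calls and 1 call against WT. Adamts1 was at 300, 299, 228, 282, 217 and 201 CPM. Adamts5, the main aggrecanase of mouse cartilage, was at 277, 285, 250, 282, 119 and 262 CPM and was 2.32-fold lower than WT (2.20 to 2.44) in the library labelled SMAD3-/-.

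Adamts4 was at 34.5, 29.9, 27.8, 11.2, 14.7 and 101 CPM. The 3 libraries without a labelled SMAD3 mutation lay at 27.8 to 34.5 CPM, the 2 single SMAD3-labelled ones below them and the double heterozygote above. Against WT, Adamts4 was 3.07-fold lower (2.49 to 3.81) in the library labelled SMAD3+/-, 2.34-fold lower (2.02 to 2.72) in the one labelled SMAD3-/- and 2.92-fold higher (2.62 to 3.25) in the double heterozygote. The double heterozygote and the library labelled SMAD3+/- differed 8.95-fold (7.44 to 10.9).

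Adamts15 was at 21.6, 39.0, 26.4, 4.65, 2.35 and 32.8 CPM. It was low in the 2 single SMAD3-labelled libraries, 4.64-fold below WT (3.39 to 6.46) in SMAD3+/- and 9.17-fold (6.79 to 12.6) in SMAD3-/-, and 1.81-fold above WT (1.51 to 2.16) in β2SP+/-. In the double heterozygote it was within the range of the 3 libraries without a labelled SMAD3 mutation, 7.05-fold above the library labelled SMAD3+/- (5.27 to 9.62). Adamts20, named here after its values were seen, was also low in the 2 single SMAD3-labelled libraries, with 3.89, 7.22, 4.18, 1.07, 0.977 and 3.92 CPM. Adamts9, a gene needed for versican turnover in the embryo, was at 42.6, 50.2, 38.9, 55.8, 18.1 and 134 CPM. It was 2.35-fold lower than WT (2.05 to 2.69) in the library labelled SMAD3-/- and 3.15-fold higher (2.87 to 3.47) in the double heterozygote. Adamts8, the neighbour of Adamts15, was at 0.442, 0.294, 0.747, 0, 0.533 and 9.49 CPM, so 298 of its counts came from the double heterozygote and 5 or fewer from each of the first 4. This member, named after its values were seen, was 21.5-fold higher there than in WT (9.09 to 66.6).

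Adamts7 and Adamts12 bind and cut cartilage oligomeric matrix protein (Comp), and Adamts6 and Adamts10 are linked to fibrillin microfibrils. Both pairs split in the double heterozygote, where 1 of each pair was higher than WT and the other lower. Adamts7 was at 36.7, 28.1, 29.6, 35.2, 34.4 and 158 CPM, with the double heterozygote 4.31-fold above WT (3.90 to 4.77) and the other 5 libraries close together. Adamts12 was at 84.0, 69.6, 76.7, 58.7, 35.2 and 35.4 CPM, 2.39-fold lower than WT (2.17 to 2.63) in the library labelled SMAD3-/- and 2.38-fold lower (2.18 to 2.59) in the double heterozygote. Comp itself was at 0.4 CPM or less in the first 5 libraries and at 21.1 CPM in the double heterozygote. Tbc1d2b, which overlaps 1.94% of the Adamts7 exon length on the opposite strand, was at 136 CPM in WT and 241 CPM in the double heterozygote.

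Adamts6 was at 104, 100, 98.6, 77.2, 22.7 and 15.8 CPM. It was 4.58-fold lower than WT (4.13 to 5.09) in the library labelled SMAD3-/- and 6.57-fold lower (5.91 to 7.31) in the double heterozygote. Adamts10 was at 26.8, 25.5, 25.0, 15.8, 31.4 and 74.4 CPM, 2.78-fold higher than WT (2.46 to 3.14) in the double heterozygote. Adamts6 and Adamts10, close relatives, thus lay on opposite sides of WT in that library.

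The other ADAMTS members were scarce. Adamts16, which stayed just under 10 CPM and was named after its values were seen, was at 10.00, 8.83, 5.38, 0.678, 0.844 and 2.96 CPM. All 3 libraries labelled with a mutant SMAD3 allele lay below the other 3, by 14.7-fold against WT (6.92 to 37.5) in SMAD3+/-, 11.8-fold (7.25 to 20.4) in SMAD3-/- and 3.38-fold (2.54 to 4.49) in the double heterozygote. Adamts17 ranged from 0.133 to 3.68 CPM and was lower than WT in both single SMAD3-labelled libraries, 9.13-fold (2.22 to 80.6) and 13.3-fold (3.94 to 69.8). Adamts19 had 0 counts in 3 libraries and reached 1.42 CPM in the library labelled SMAD3-/-.

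The ADAMTS-like genes were not uniform. Adamtsl3 was at 18.6, 29.6, 31.7, 9.11, 32.6 and 48.2 CPM, and was 2.04-fold lower than WT (1.59 to 2.63) in the library labelled SMAD3+/-, 1.75-fold higher (1.5 to 2.05) in the one labelled SMAD3-/- and 2.59-fold higher (2.24 to 3.01) in the double heterozygote. It was the only member higher than WT in the library labelled SMAD3-/-, a call lost with DESeq2 size factors. Adamtsl4, a fibrillin-binding protein whose loss displaces the lens, was at 8.93, 10.5, 11.4, 4.55, 6.44 and 40.6 CPM, 4.54-fold above WT (3.71 to 5.62) in the double heterozygote. Adamtsl2, which binds fibrillin and latent TGF-beta binding proteins and was named after its values were seen, was at 2.30, 3.24, 2.39, 0.291, 0.0888 and 0.541 CPM. Its 3 values from libraries labelled with a mutant SMAD3 allele lay below the other 3, and its ratios to WT were 7.91-fold lower (2.42 to 40.8), 25.9-fold lower (6.48 to 225) and 4.25-fold lower (2.22 to 8.34) in SMAD3+/-, SMAD3-/- and the double heterozygote. Adamtsl1 ranged from 18.2 to 31.4 CPM and Adamtsl5 from 14.1 to 33.2 CPM, both with 0 calls against WT.

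Across the labelled genotypes, 6 of 36 members had all 3 SMAD3-labelled libraries below the 3 others (16.7%, background 12.6%): Adam22, Adamts6, Adamts12, Adamts16, Adamtsl1 and Adamtsl2. Another 3 had all 3 above (8.33%, background 13.2%), namely Adam9, Adam15 and Adamts14. These shares stood close to those of all genes.

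The double heterozygote allows a further comparison, of its level with the one reached by combining the log2 differences of the 2 single heterozygotes from WT. A member departed when the 95% counting interval of this log2 difference lay beyond 1.5-fold. Of 36 members, 14 departed upwards (38.9%, background 18.5%) and 6 downwards (16.7%, background 16.5%). The 14 include Adamts8, which met the minimum only in the double heterozygote, and Adamts19, which like Adamts8 had 0 counts in at least 1 of the 4 libraries, so that their values rest on the added 0.5 counts, and 12 are left without them. Over all 36 members the median departure was 0.66 on the log2 scale, against 0.08 over all genes. Among members counted in all 4 libraries, upward departures were largest for Adamts4, with 101 CPM measured against 9.79 combined and a departure of 3.36 (3.00 to 3.72). Adamtsl4 followed with 40.6 against 5.40 CPM, a departure of 2.91 (2.31 to 3.52), and Adamts7 with 158 against 27.0 CPM, a departure of 2.55 (2.26 to 2.84). Adamts10 reached 74.4 against 15.1 CPM, Adamts15 32.8 against 8.49 CPM and Adam17 296 against 97.4 CPM, a departure of 1.60 (1.45 to 1.75).

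Downward departures were found for Adam4, Adam12, Adam19, Adam22, Adam23 and Adamts6. Adam12 reached 177 CPM against 653 combined, a departure of -1.89 (-1.96 to -1.81), and Adam19 200 against 540 CPM, a departure of -1.43 (-1.51 to -1.35). Adamts6 reached 15.8 against 74.3 CPM, a departure of -2.23 (-2.44 to -2.02). Of the 4 libraries that enter these values, only the double heterozygote has the higher share of reads on genes, so its make-up and its genotype cannot be told apart here. The library labelled SMAD3+/-, which enters every combined level, is the only one of them with high Xist. The sex of the embryos thus differs among them as well.

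**Figure D4:**
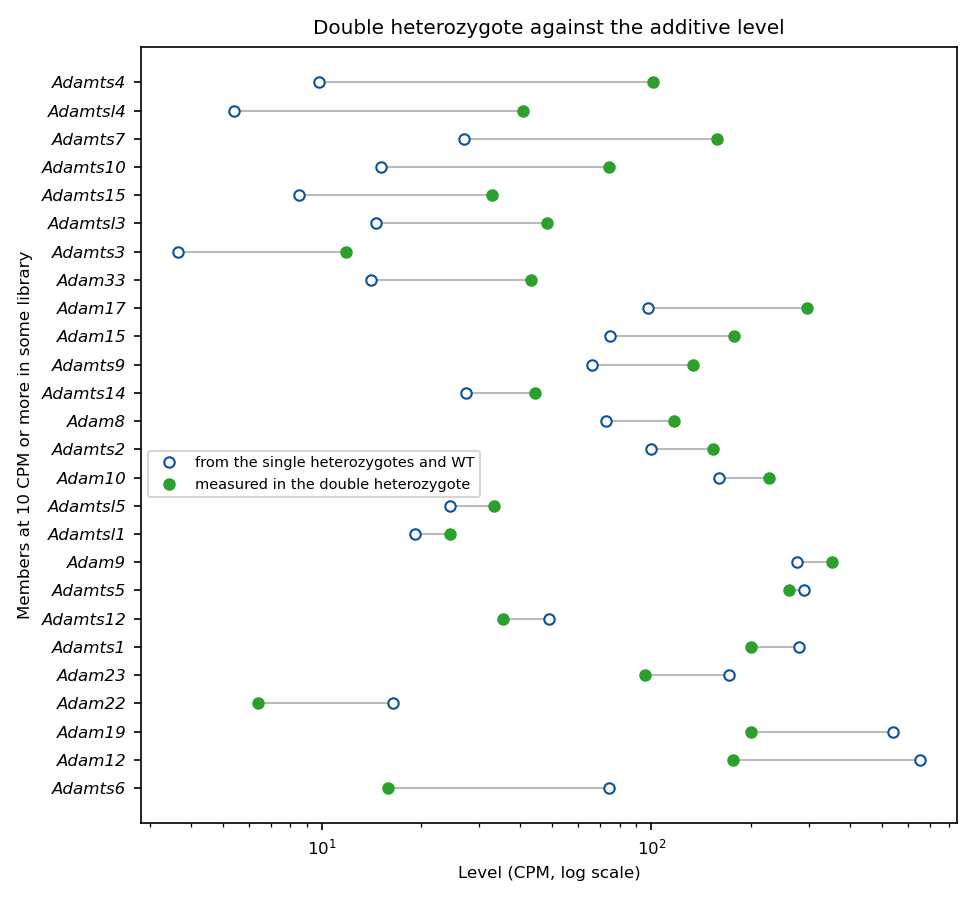
Level measured in the double heterozygote (filled) and level combined from WT and the 2 single heterozygotes (open), in CPM on a log scale, for the 26 members that reached 10 CPM in some library. Members are ordered by the difference, from Adamts4 (101 against 9.79 CPM) to Adamts6 (15.8 against 74.3 CPM).

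The effect per labelled mutant allele was fitted over all 6 libraries with edgeR's quasi-likelihood test, for the 34 members among 14085 genes with at least 1 CPM in 2 libraries. After Benjamini-Hochberg adjustment 0 members were called per Smad3 allele and 0 per Sptbn1 allele, and 0% of all genes for either. At an unadjusted p under 0.05 there were 5 members (14.7%) per Smad3 allele against 24.2% of all genes, and 0 members per Sptbn1 allele against 0.149%. The DESeq2 Wald test called 6 of the 34 members per Smad3 allele, among 2049 of 14085 genes. The share of members thus stood near that of all genes. The 6 were Adam4, Adam12, Adamts6, Adamts12, Adamts16 and Adamtsl2, and 0 were called per Sptbn1 allele. Adamtsl2 had the lowest adjusted p of the members in edgeR, with a log2 change per Smad3 allele of -2.38 (SE 0.45), an unadjusted p of 0.00201 and an adjusted p of 0.16, and its adjusted p in the DESeq2 Wald test was 0.0041. For Adamts16 the change was -1.75 (SE 0.48, edgeR adjusted p = 0.161), for Adamts6 -1.33 (SE 0.43, edgeR adjusted p = 0.17) and for Adamts12 -0.69 (SE 0.19, edgeR adjusted p = 0.162).

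Within the 4 libraries with 40.9 to 43.3% of reads on genes, an edgeR allele fit with 1 residual degree of freedom was added after the data were seen. For Adam23, Adamts4 and Adamts16, picked by this fit, the log2 changes per Smad3 allele were 0.94, -1.60 and -3.93. Only the library labelled SMAD3+/- carries such an allele there. It is also the one with Xist at 2747 CPM, so allele and sex of the embryo cannot be told apart in these changes. Members picked in this way cannot be read as particular to the family.

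Genes that act with the family were counted from lists drawn up from general knowledge. Of 19 regulators measured, 3 were lower than WT in the library labelled SMAD3+/- (15.8%, background 4.46%). In the one labelled SMAD3-/- 7 were lower (36.8%, background 25.2%) and 6 higher (31.6%, background 24.2%). In the double heterozygote 3 were lower (15.8%, background 19.1%) and 11 higher (57.9%, background 21.6%). The lower ones include Papln in each of these libraries, where it was under 1 CPM. In β2SP+/- 1 was lower, the inhibitor Timp1 (5.26%, background 1.20%), and 0 were higher (background 0.635%). In β2SP-/- 0 were called, with backgrounds of 0.648% higher and 0.412% lower. Timp3, the tissue inhibitor that acts on many ADAM and ADAMTS proteases, was at 2016, 2740, 2702, 1014, 434 and 542 CPM. It was 1.99-fold lower than WT in the library labelled SMAD3+/-, 4.64-fold in the one labelled SMAD3-/- and 3.72-fold in the double heterozygote. Pcsk5, a proprotein convertase, was at 101, 102, 87.4, 30.1, 4.04 and 42.9 CPM, lower than WT in the same 3 libraries. Rhbdf1 and Rhbdf2, the iRhoms that carry Adam17 to the cell surface, were at 124 and 70.4 CPM in the double heterozygote against 26.5 and 14.3 in WT, 4.71-fold and 4.91-fold higher. Lrp1, the receptor that clears several ADAMTS proteases, was at 1430 CPM in WT, 745 in the library labelled SMAD3-/- and 2703 in the double heterozygote.

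Among 25 ADAM substrates measured, 3 were higher than WT in the library labelled SMAD3+/- (12.0%, background 1.64%) and 4 lower (16.0%, background 4.46%). In the one labelled SMAD3-/- 6 were higher and 7 lower, 24.0 and 28.0%, which is close to the backgrounds of 24.2 and 25.2%. The 6 include Areg, which met the minimum only in that library. In the double heterozygote 11 were higher (44.0%, background 21.6%) and 3 lower (12.0%, background 19.1%). Tnf, the cytokine released by Adam17, was at 5.40, 4.71, 5.68, 7.95, 0.222 and 44.3 CPM, and its lowest library was also that of the leukocyte markers, whose part was not tested. App, the amyloid precursor, was at 376 to 441 CPM in the first 5 libraries and at 2136 CPM in the double heterozygote, 5.30-fold above WT. Ereg and Hbegf, ligands of the EGF receptor, differed in direction there, with 84.3 against 10.1 CPM in WT for Ereg and 9.87 against 30.9 CPM for Hbegf. Among 23 ADAMTS substrates and partners, 1 was higher (4.35%, background 1.64%) and 4 lower (17.4%, background 4.46%) in the library labelled SMAD3+/-. In the one labelled SMAD3-/- 3 were higher (13.0%, background 24.2%) and 12 lower (52.2%, background 25.2%). In the double heterozygote 8 were higher (34.8%, background 21.6%) and 5 lower (21.7%, background 19.1%). The 8 include Comp, which met the minimum only there and so was compared through the library in which it is high. In β2SP+/- 2 were higher, Col2a1 and Fbn2 (8.70%, background 0.635%), and 0 lower. In β2SP-/- 1 was higher, Col2a1 (4.35%, background 0.648%), and 0 lower. Vcan, the main ADAMTS substrate in embryonic mesenchyme, was at 1101, 1174, 1056, 1083, 563 and 848 CPM, and only the library labelled SMAD3-/- was called, 1.96-fold lower than WT. Dcn, a small proteoglycan and fibroblast marker, was at 55.2 CPM in that library against 1301 in WT.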

How the data were processed

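RNA was taken with TRIZOL and 1 ug entered an Illumina TruSeq kit, per the labels' protocols. The authors deposited 1 table of raw counts per gene symbol and library, without scaling, ending in 5 summary lines that were left out. Per the submitters' processing notes, the build was mm9 and the tools included TopHat2 2.0.10, HTSeq, DESeq2, Trimmomatic and FastQC. Their roles, the annotation, the counting mode and the strand setting are not given in the sources used here, so reads of overlapping genes cannot be told apart.

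Library sizes were scaled with TMM (edgeR 4.0.16, R 4.3.3). Ratios of 9 pairs of libraries have exact Clopper-Pearson 95% intervals (scipy 1.17.1), and a count of 0 was replaced by a floor of 3 counts per library. Departures used 0.5 added counts. Allele effects were fitted with edgeR's quasi-likelihood test over 14085 genes (3 residual degrees of freedom), and p-values were adjusted over all of them by Benjamini-Hochberg, with a threshold of 0.05. DESeq2 1.42.0 was an alternative. The scripts were tested on simulated data.

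The members, role lists and other gene lists were chosen from general knowledge with earlier results of these data known. Values in every library were given for members called against WT with at least 10 CPM in some library and for the 6 with the highest mean CPM. Exon lengths and site sequences come from GENCODE vM21 by gene symbol (56 of 56 rows matched). The overlaps of members with other genes use its exon coordinates. Among overlapping genes that have counts, only Iah1, Tbc1d2b and Mapkapk5 were kept. One library per group limits every comparison to these libraries.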

Additional observations from a re-analysis of the deposited data

How the results depend on the processing

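Under other settings (scaling by DESeq2 or by totals, filters of 0 and 5 CPM, a 2-fold threshold, widened intervals), 0 of 106 called ratios without a count of 0 reversed (92 of them under the 5 CPM filter). DESeq2 size factors kept the call of 100, total counts of 104, the 2-fold threshold of 80, widening by the dispersion of the 4 libraries of 88, and widening by that of all 6 libraries of 20. With the 6-library dispersion, members called against WT numbered 0 in β2SP+/-, 0 in β2SP-/-, 1 in the library labelled SMAD3+/- (Adamts16), 6 in the one labelled SMAD3-/- and 3 in the double heterozygote (Adamts8, Adam4 and Adamts6), 2 between the libraries labelled SMAD3-/- and SMAD3+/-, and in the double heterozygote 4 against β2SP+/- and 5 against the library labelled SMAD3+/-. With the 4-library dispersion, 0 were called in β2SP+/- and 0 in β2SP-/-. At 2-fold, 5 were called in the library labelled SMAD3+/-, 0 in β2SP+/- and 0 in β2SP-/-. The β2SP-/- count was also 0 with DESeq2 size factors, total counts or the 5 CPM filter. Shares of all genes called were not counted with widened intervals or at 2-fold, so these counts of members have no background. Per Smad3 allele, 6 of 34 members were called by the DESeq2 Wald test, among 2049 of 14085 genes. Without a term for the other gene 1 of 34 was called, among 676 of 14085 genes. In edgeR's fit 0 were called, and leaving out each library in turn gave 0 to 0 for both alleles. No paired analysis was possible because each genotype has 1 library and the labels give no replicate numbers. Members with few counts, such as Adam5, Adam11, Adamts8 and Adamts17, have wide intervals at these depths.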

Other observations

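Of the rows with a family symbol that stayed below the minimum, 10 had 0 counts in all 6 libraries. Other cell type markers were counted in the same libraries. Epithelial markers summed to 11.2 CPM in WT, 28.5 in the library labelled SMAD3+/-, 69.1 in the one labelled SMAD3-/- and 6.34 in the double heterozygote. In the library labelled SMAD3-/- most of this sum came from Krt18 at 31.4 CPM and Krt19 at 31.1 CPM, while Epcam was at 0.222 CPM, Cdh1 at 1.02 and Krt5 and Krt14 at 0. In the library labelled SMAD3+/-, Krt5 was at 6.88 CPM and Krt14 at 5.91. Neural and Schwann cell markers summed to 657 CPM in WT, 908 in the library labelled SMAD3-/- and 242 in the double heterozygote, and cartilage and bone markers to 196, 185 and 66.7 CPM. Skeletal muscle markers summed to 79.7 CPM in WT, 36.2 in β2SP+/-, 148 in the library labelled SMAD3+/-, 138 in the one labelled SMAD3-/- and 39.9 in the double heterozygote. Mesothelium and gonad markers summed to 32.7 CPM in WT, 14.4 in β2SP+/- and 70.7 in the double heterozygote. Endothelial markers stayed at 7.73 to 14.9 CPM summed in every library. Their part in the ADAM and ADAMTS levels was not tested.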
